A study of Staurois parvus with 11 samples.

Results

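Cells that form sheets or networks are joined by tight junctions, which seal the space between cells, and by gap junctions, which let ions and small molecules pass from cell to cell. Tight junction strands are built from claudins together with occludin and its MARVEL domain relatives, they are accompanied by JAM family adhesion molecules, and they are tied to the actin cytoskeleton by the scaffold proteins ZO-1, cingulin and paracingulin. Gap junction channels are built from connexins, and the related pannexins form channels in a single membrane. In the vertebrate nervous system these proteins are known for the blood-brain barrier, for the coupling of astrocytes and for electrical synapses between neurons, whereas mature skeletal muscle fibers in mammals lack gap junctions.

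The transcripts described here are the count entries of the foot-flagging frog Staurois parvus whose annotated symbol is that of a claudin, connexin, pannexin, occludin, JAM, ESAM, MARVEL domain, ZO or cingulin protein. The symbols were assigned in the deposited annotation from the best protein match in another species, which is named below where it bears on a result. There were 46 such junction transcripts among 23777 count entries, from 43 gene IDs and with 34 different symbols. They comprised 15 claudin, 13 connexin, 8 other tight junction membrane protein, 8 scaffold and 2 pannexin transcripts. Of the 46, 37 passed the filter on low counts and were tested, and 9 were not. No count entry carried the symbol CLDN5, CLDN11, GJB1, GJB2, GJB6 or PANX1, known from vessels, myelin and glia of mammals, so these were not analysed here.

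The samples were whole brain (2 libraries), leg muscle, which was dissected from the thigh (5 libraries), and spinal cord (4 libraries). All came from untreated adult male frogs of a captive colony. The labels call the samples of a tissue biological replicates, and each whole brain or spinal cord stands for a different frog. Nothing states whether any leg muscles shared a frog, or whether equal numbers across tissues did. The p-values measure only the spread between these samples. The libraries are named below by tissue and number. Values are read counts scaled to a library size of 1000000 (CPM) after TMM scaling (edgeR's trimmed mean of M-values). No lengths were used, so levels are compared between samples and not between transcripts. Comparisons between tissues are given as log2 fold change (Log2FC) ± SE from edgeR's quasi-likelihood test with Benjamini-Hochberg adjustment over all 13923 tested transcripts, and a transcript was called at an adjusted p under 0.05. In whole tissue, fewer cells of a type and less RNA per cell cannot be told apart.

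Libraries held 12339432 to 56082082 counted reads, of which 2622 to 26359 fell in junction transcripts. A count of 0 allowed up to 0.0841 to 0.228 CPM, depending on the library, for counting error only. Neuronal marker genes were at a summed level of 2238 to 2436 CPM in the brain, 2.10 to 15.1 CPM in leg muscle and 2046 to 2646 CPM in the spinal cord. Sarcomere genes together with the muscle creatine kinase CKM were at 13.6 to 164 CPM in the brain and 174526 to 550719 CPM in leg muscle. In the spinal cord, where libraries 1 and 2 were high, they were at 45.8 to 1579 CPM. Of this list 5 of 16 genes were found, and CKM made up most of the sum in every library. TMM factors were 0.389 to 0.752 in leg muscle and 1.57 to 2.09 in brain and spinal cord.

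Of the 37 tested transcripts, 18 were called in at least 1 comparison and 19 in none. The highest mean CPM lay in the brain for 8, in leg muscle for 21 and in the spinal cord for 8. Neither count was made over all tested transcripts, so neither shows whether junction transcripts differ from the rest. Between brain and spinal cord 1 transcript was called, higher in the brain, against 1.19% of all tested transcripts, and none was called higher in the spinal cord, against 0.840% of all. Without adjustment, 1 was higher in the brain and 5 were lower there at p under 0.05, counts that were not made over all transcripts. DESeq2 and limma-voom each called 2 lower in the brain, a share of 5.41%. Of all tested transcripts they called 3.26% and 1.87% lower there. Between brain and leg muscle 7 were called higher in the brain, where 28.7% of all tested transcripts were, and 4 higher in leg muscle, where 21.9% of all were. Between leg muscle and spinal cord 6 were called higher in leg muscle, against 25.7% of all, and 11 higher in the spinal cord, against 29.9% of all. The shares of junction transcripts were thus 18.9% and 10.8% in the brain and leg muscle comparison and 16.2% and 29.7% in the leg muscle and spinal cord comparison, at or below the share over all transcripts in each direction.

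The median Log2FC of the tested junction transcripts was 0.02 for brain over spinal cord, -0.52 for brain over leg muscle and 0.87 for leg muscle over spinal cord, beside medians of 0, 0.11 and -0.10 over all tested transcripts. Directions against leg muscle depended on the scaling. With library totals alone the median of all transcripts was 1.96 for brain over leg muscle, 15 junction transcripts were called higher in the brain and 0 higher in leg muscle, and over all transcripts 8805 and 930 were called in place of 4001 and 3054. For leg muscle over spinal cord the same setting gave a median of -1.95, with 2 junction transcripts called higher in leg muscle than in the spinal cord and 15 lower. These were 5.41% and 40.5% of the junction transcripts, beside 6.63% and 68.2% of all tested transcripts. For brain over leg muscle the 15 and 0 were 40.5% and 0.00%, beside 63.2% and 6.68% of all.

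**Figure D1:**
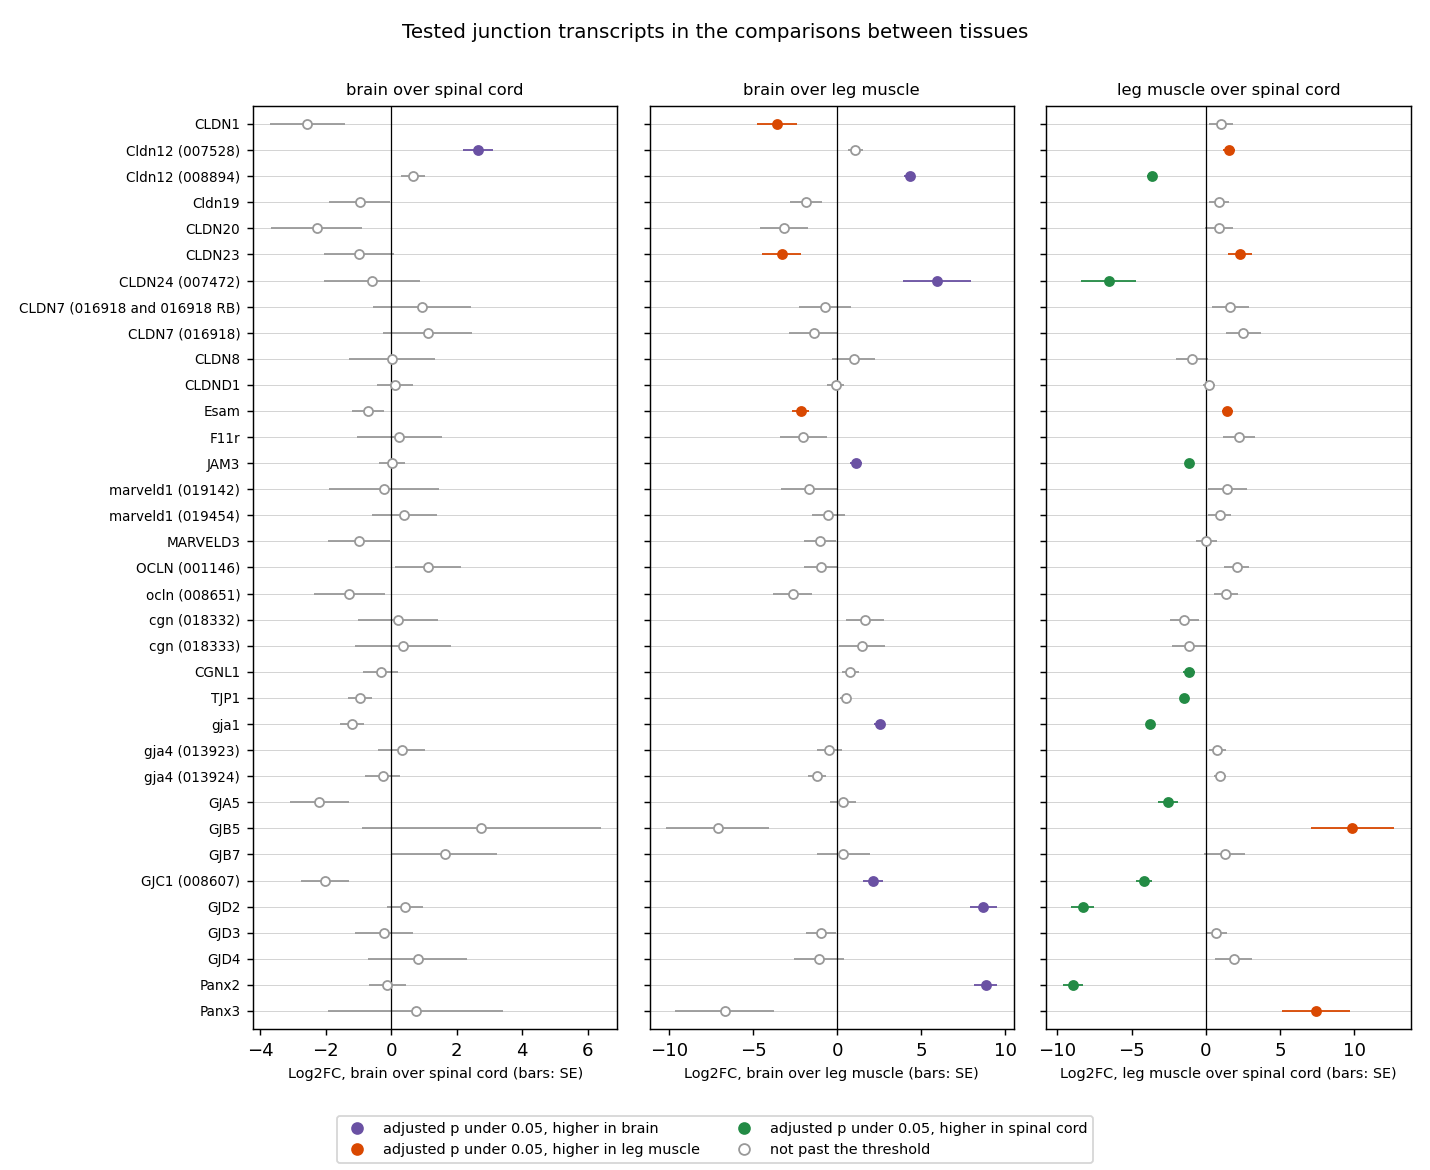
Log2FC of 35 tested junction transcripts in the 3 comparisons between tissues, with bars for the SE. Filled points passed an adjusted p of 0.05 and are colored by the tissue with the higher level. A single filled point, Cldn12 (007528-RA), stands in the brain and spinal cord panel, against 10 and 15 filled points in the panels with leg muscle.

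The plot of fold changes shows 7 transcripts that were higher in both nervous tissues than in leg muscle. They were GJD2, Panx2, gja1, GJC1 (008607-RA), Cldn12 (008894-RA), JAM3 and CLDN24 (007472-RA), and 3 of them are connexins. How many of all tested transcripts were called in both comparisons was not counted, so the 7 are not read as a trait of junction transcripts. The transcripts CLDN23 and Esam were called higher in leg muscle than in both brain and spinal cord, although with library totals alone neither was called and Esam changed sign against the spinal cord.

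Of 10 tested connexins, 3 were called higher in the brain than in leg muscle, a share of 30% beside 28.7% of all tested transcripts, and 0 lower, beside 21.9% of all. For leg muscle over spinal cord 4 were called lower, beside 29.9% of all, and 1 higher, beside 25.7% of all. GJD2 encodes connexin 36, the main connexin of electrical synapses in mammals. It had 2.46 and 1.71 CPM in the brain, 0 CPM in every leg muscle library and 1.80, 1.07, 1.54 and 1.82 CPM in the spinal cord. Every brain and spinal cord library held GJD2 reads and no leg muscle library did. Set against a floor of 3 reads over all leg muscle libraries, GJD2 was at least 63.9-fold higher in the brain (adjusted p = 6.2e-05) and leg muscle was at least 48.9-fold lower than the spinal cord (adjusted p = 4.8e-05). Both bounds cover counting error only. Brain and spinal cord overlapped, with a Log2FC of 0.42 ± 0.55 and a 95% interval of -0.86 to 1.69 (adjusted p = 0.84).

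Another entry with the text of a gap junction delta-2 protein, matched to a skate and lacking a symbol, lay outside the set of symbols and was looked at after its values were seen. It had 13.1 and 8.80 CPM in the brain, 0 CPM in all 5 leg muscle libraries and 8.04, 4.59, 10.03 and 7.03 CPM in the spinal cord. The adjusted p was 6.1e-06 for brain over leg muscle and 5e-06 for leg muscle over spinal cord. Its pattern over the tissues was like that of GJD2.

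The transcript gja1 encodes connexin 43, the connexin of astrocytes and of many other cells. Its level was 44.997 and 39.8 CPM in the brain, 4.72, 10.7, 5.24, 6.77 and 8.84 CPM in leg muscle and 97.4, 64.96, 125 and 102 CPM in the spinal cord. The lowest spinal cord library lay above both brain libraries, and the lowest brain library lay above every leg muscle library. Brain over leg muscle gave 2.54 ± 0.32 (adjusted p = 5.6e-05) and leg muscle over spinal cord -3.74 ± 0.30 (adjusted p = 1.1e-06). For brain over spinal cord the Log2FC was -1.20 ± 0.38 and did not pass (adjusted p = 0.16), whereas DESeq2 and limma-voom each gave 0.044. The summed astrocyte and ependymal list was at 1406 to 2242 CPM in the brain and 411 to 2934 CPM in leg muscle, with leg muscle 1 high. In the spinal cord it was at 2069.5 to 2667 CPM. Most of the sum in leg muscle 1 was GLUL, with entries at 1013 and 1697 CPM. Of 11 tested entries 3 were called higher in the brain than in leg muscle, beside 28.7% of all tested transcripts, and 2 lower, beside 21.9%. SLC1A3 (015220-RA) averaged 304, 0.367 and 694 CPM in brain, leg muscle and spinal cord, and Aqp4 (005877-RA) 0, 124 and 0.147 CPM. The part of this list in the gja1 difference was not tested.

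GJC1 (008607-RA), named from a bovine match to connexin 45, had 23.6 and 22.9 CPM in the brain, 2.59, 3.62, 2.44, 2.58 and 14.9 CPM in leg muscle and 118, 70.7, 79.05 and 109 CPM in the spinal cord. All 4 spinal cord libraries lay above the brain, which lay above leg muscle, although leg muscle 5 stood apart from the other 4 leg muscles. Leg muscle over spinal cord was -4.16 ± 0.56 (adjusted p = 6.9e-05) and brain over leg muscle 2.15 ± 0.60 (adjusted p = 0.011), a call lost without brain 1 (Log2FC 2.09, adjusted p = 0.051). Without leg muscle 5 these values were -5.06 (adjusted p = 1.7e-07) and 3.04 (adjusted p = 5.8e-06). The difference between brain and spinal cord, -2.02 ± 0.73, did not pass (adjusted p = 0.23) but depended on leg muscle 5, which enters the shared estimate of spread: without that library the adjusted p was 0.0068, in a fit of brain and spinal cord only it was 0.0095, and DESeq2 and limma-voom gave 0.046 and 0.015. Myelin and oligodendrocyte genes were ordered in the same way over the tissues, with 1554 to 1881 CPM in the brain, 98.2 to 333 CPM in leg muscle and 6037 to 11114 CPM in the spinal cord, and leg muscle 5 again was the highest leg muscle. Their part in the GJC1 difference was not tested.

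The other entries named GJC1 were nearly without reads. The Xenopus-matched gjc1 (006797-RA) had 26 reads in all, 24 of them in leg muscle, and GJC1 (003202-RA) had 6 reads in all, so neither was tested. Without a filter on low counts gjc1 (006797-RA) was called higher in leg muscle than in the spinal cord, at a Log2FC of 4.20 (adjusted p = 0.016).

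GJA5 encodes connexin 40, which in mammals marks arterial endothelium and atrial muscle. It had 1.37 and 4.26 CPM in the brain, 2.13, 0.890, 2.19, 2.88 and 2.82 CPM in leg muscle and 1.65, 9.32, 12.8 and 27.6 CPM in the spinal cord. Spinal cord 4 was highest and spinal cord 1 lay within the leg muscle range, so the tissues overlapped. Leg muscle over spinal cord was -2.55 ± 0.66 (adjusted p = 0.0062), and brain over spinal cord was -2.19 ± 0.91 (adjusted p = 0.31). The leg muscle over spinal cord value was -1.83 (adjusted p = 0.028) without spinal cord 4, and limma-voom did not call it, at -2.07 (adjusted p = 0.055). The summed endothelium list was highest in leg muscle, with 36.4 to 44.6 CPM in the brain, 125 to 174 CPM in leg muscle and 64.8, 67.1, 112 and 113 CPM in spinal cord 1 to 4. Over the spinal cords it was ordered as GJA5 was, but the order of spinal cord 3 and 4 hung on the entry VWF (018557-RA). That entry had 13.996 CPM in spinal cord 4 and 0.0892 to 0.765 CPM in the other spinal cords. Like GJA5, the list had a lower mean in the brain than in the spinal cord. Its part in the GJA5 differences was not tested.

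The other endothelial connexin in mammals, connexin 37, is encoded by gja4. The transcript gja4 (013924-RA) was at 1.52 and 1.60 CPM in the brain, 3.20, 1.97, 3.35, 4.61 and 4.97 CPM in leg muscle and 1.15, 1.03, 2.33 and 2.91 CPM in the spinal cord. Leg muscle lay above the brain in every library but overlapped the spinal cord. Neither brain over leg muscle, at -1.22 ± 0.54 (adjusted p = 0.079), nor leg muscle over spinal cord, at 0.96 ± 0.41 (adjusted p = 0.066), passed the threshold. DESeq2 called both, at -1.22 (adjusted p = 0.034) and 0.97 (adjusted p = 0.032), and limma-voom called the second, at 1.03 (adjusted p = 0.048). Leaving out leg muscle 2 also gave both calls (adjusted p = 0.048 and 0.037), and leaving out spinal cord 4 gave the second (adjusted p = 0.025). The neighboring ID gja4 (013923-RA) had at most 1.26 CPM in any library.

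GJB5 encodes a connexin of the skin in mammals. Its level was 0 and 0.0560 CPM in the brain, 4.19, 0.636, 18.5, 0 and 0.0421 CPM in leg muscle and 0 CPM in every spinal cord library. Leg muscle 3 and leg muscle 1 held nearly all of its reads and no spinal cord library held any. The Log2FC of leg muscle over spinal cord passed (adjusted p = 0.016) with leg muscle at least 152-fold higher against a floor of 3 reads over the spinal cord, but a mean set by 2 libraries describes those libraries, and not each leg muscle. Without leg muscle 3 that bound was 32.97-fold, and without leg muscle 1 or leg muscle 3 GJB5 no longer had enough reads to be tested. GJB5 thus passed the filter on low counts only through these libraries, and its call is not read as a difference of leg muscle as a tissue. Limma-voom did not call it, at 4.70 (adjusted p = 0.1), nor did the fit without spinal cord 1 and 2, which the file names put on another sequencing lane, at 9.95 (adjusted p = 0.067).

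GJD3 was at 0.152 and 0.869 CPM in the brain, 0.457, 0.318, 1.52, 2.03 and 0.589 CPM in leg muscle and 0.498, 0.892, 0.698 and 0.320 CPM in the spinal cord, and it passed in no comparison (adjusted p = 0.96 for brain over spinal cord, 0.39 for brain over leg muscle and 0.39 for leg muscle over spinal cord). GJB7 and GJD4, each below 2.5 CPM in every library, were not called either. GJA3, a lens connexin, had 1 read in all.

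**Figure D2:**
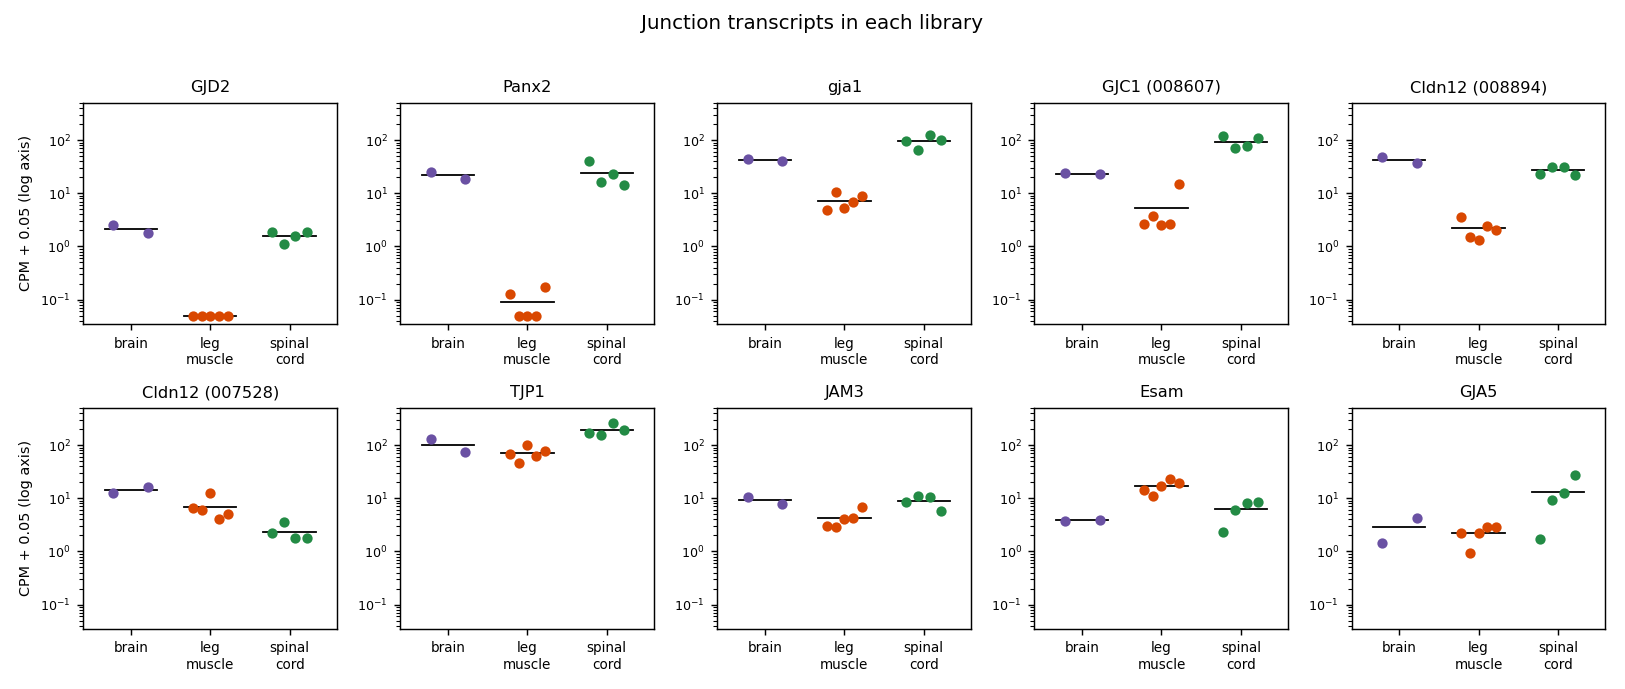
CPM of 10 junction transcripts in each library (points) by tissue, with the mean as a line. The vertical axis is logarithmic, after adding 0.05 to each value. GJD2 lay at 0 CPM in all leg muscles and Esam was highest in leg muscle on this scale, though not with library totals alone, whereas GJC1 (008607-RA) was at 70.7 to 118 CPM in the spinal cord.

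Panx2 was lower in every leg muscle library than in brain and spinal cord, whereas Panx3 was high in some leg muscle libraries only. Panx2, the pannexin of the mammalian central nervous system, had 24.8 and 18.8 CPM in the brain, 0.0761, 0, 0, 0 and 0.126 CPM in leg muscle and 41.1, 16.5, 23.2 and 14.2 CPM in the spinal cord. Leg muscle held 4 reads in all, and no leg muscle library came near a brain or spinal cord library. The Log2FC was 8.84 ± 0.70 for brain over leg muscle (adjusted p = 1.5e-06) and -8.96 ± 0.67 for leg muscle over spinal cord (adjusted p = 7.6e-07). Brain and spinal cord overlapped, at -0.12 ± 0.56 (adjusted p = 0.97), with a 95% interval of -1.36 to 1.11.

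Panx3, the pannexin of cartilage, bone and skin in mammals, was seen at 0.334 and 0 CPM in the brain, 0, 0.191, 0.305, 8.04 and 77.6 CPM in leg muscle and 0.230, 0, 0.145 and 0 CPM in the spinal cord. Leg muscle 5 took 1842 reads and leg muscle 4 took 190, and the other 3 leg muscles were within the range of the nervous tissues. Leg muscle over spinal cord passed at 7.43 ± 2.26 (adjusted p = 0.015), whereas brain over leg muscle did not (adjusted p = 0.078). Limma-voom and the fit without spinal cord 1 and 2 did not call the first of these, at 4.64 (adjusted p = 0.16) and 7.73 (adjusted p = 0.094), and without leg muscle 5 it was 4.46 (adjusted p = 0.049). DESeq2 called the second, at -6.61 (adjusted p = 0.046), and so did the fit without leg muscle 1, at -7.00 (adjusted p = 0.048). The summed connective tissue list was 23711 CPM in leg muscle 5 and 3717 CPM in leg muscle 4, against 1028 to 1247 CPM in the other leg muscles. It was 104 to 114 CPM in the brain and 129 to 445 CPM in the spinal cord. All 12 of its tested entries were called higher in leg muscle than in both other tissues. Of all tested transcripts 21.9% were so called against the brain and 25.7% against the spinal cord. How far connective tissue material set the Panx3 difference was not tested.

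Claudins divided between both directions. Of 11 tested, 2 were called higher in the brain than in leg muscle and 2 lower, and 2 were higher in leg muscle than in the spinal cord and 2 lower, each a share of 18.2% and below the share over all tested transcripts (21.9% to 29.9%). Cldn12, whose mammalian protein is unusual among claudins in lacking the tail motif that binds ZO proteins, was given to 2 transcripts of different gene IDs, and these behaved differently. Cldn12 (007528-RA) had 12.7 and 16.2 CPM in the brain, 6.62, 6.04, 12.3, 3.98 and 4.93 CPM in leg muscle and 2.18, 3.48, 1.74 and 1.76 CPM in the spinal cord. Its brain libraries lay above all others and its leg muscle libraries above all spinal cords. It was the only junction transcript called between brain and spinal cord, at 2.66 ± 0.45, a 6.31-fold higher level in the brain (adjusted p = 0.012).

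That call was lost without brain 1, brain 2 and spinal cord 3, each left out alone (Log2FC 2.46 to 2.81, adjusted p = 0.051 to 0.15). It was also lost without spinal cord 1 and 2, the libraries of the other lane, at 3.03 (adjusted p = 0.055). Against leg muscle, brain was 1.10 ± 0.43 (adjusted p = 0.05, just above the threshold before rounding) and leg muscle over spinal cord was 1.56 ± 0.38 (adjusted p = 0.0043). The sign of the last one turned with library totals alone, at -0.31 (adjusted p = 0.52).

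Cldn12 (008894-RA) had 48.6 and 36.7 CPM in the brain, 3.58, 1.46, 1.28, 2.41 and 1.98 CPM in leg muscle and 23.1, 30.9, 31.6 and 21.7 CPM in the spinal cord. Here brain and spinal cord both lay above every leg muscle, with 4.32 ± 0.35 for brain over leg muscle (adjusted p = 1.6e-06) and -3.65 ± 0.31 for leg muscle over spinal cord (adjusted p = 1.9e-06). Both calls were kept under every alternative run. Brain over spinal cord was 0.67 ± 0.36 and did not pass (adjusted p = 0.46).

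The ratio of both transcripts within a library does not depend on scaling. The log2 ratio of Cldn12 (007528-RA) to Cldn12 (008894-RA) reads, after adding 0.5 read to each, was -1.56 ± 0.54 among brains, 1.63 ± 1.03 among leg muscles and -3.58 ± 0.44 among spinal cords (SD, n = 2, 5 and 4). Leg muscle and spinal cord did not overlap in this ratio, and differed by 5.21 on the log2 scale, with p = 0.016 in an exact two-sided permutation test, the smallest that 5 against 4 libraries allow. Over the 6 pairs of same-named tested transcripts this became 0.048 after Benjamini-Hochberg adjustment. That adjusted value depends on a tie with another pair, which is not reported here by name. For 4 other same-named pairs (ocln, gja4, cgn and marveld1) the exact permutation test gave p = 0.13 to 1. With 2 brain libraries, no such test could reach 0.05 against the brain.

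**Figure D3:**
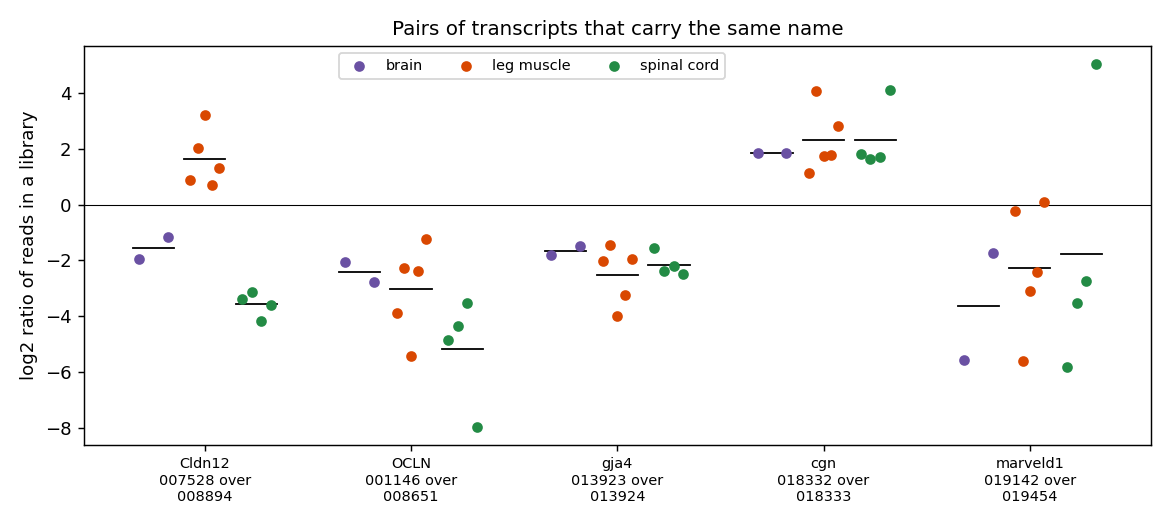
log2 ratio of the reads of 2 transcripts that carry the same symbol, in each library (points) and as a tissue mean (line), after adding 0.5 read to each count. For Cldn12 the leg muscles lay between 0.717 and 3.23 and the spinal cords between -4.17 and -3.15.

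CLDN1 encodes claudin-1, the main barrier claudin of the epidermis in mammals. It had 1.97 and 4.45 CPM in the brain, 38.2, 31.3, 91.9, 20.7 and 11.6 CPM in leg muscle and 1.30, 9.72, 28.5 and 36.6 CPM in the spinal cord. All leg muscles exceeded both brains, whereas the spinal cords ran from below the brain to within the leg muscle range. Brain over leg muscle was -3.59 ± 1.21 (adjusted p = 0.027) and leg muscle over spinal cord 1.02 ± 0.79 (adjusted p = 0.29). The call against the brain was lost without brain 1 and brain 2, each left out alone (Log2FC -4.37 to -3.20, adjusted p = 0.085 to 0.17), and also with library totals alone, at -1.75 (adjusted p = 0.15), with limma-voom, at -3.31 (adjusted p = 0.056), and when leg muscle 1 and 3 were both left out, at -2.73 (adjusted p = 0.06). Without leg muscle 3 alone it was -2.99 (adjusted p = 0.037). The summed epithelium list in the same spinal cords was 44.2, 101, 84.6 and 161 CPM, and most of it was the cadherin entry cdh1 (016616-RA), at 27.6, 64.9, 56.8 and 109 CPM. The epithelial adhesion molecule EPCAM had 1.38, 1.03, 0.233 and 0.799 CPM in them. The part of this material in CLDN1 was not tested.

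CLDN23 was low, with 0.0607 and 0.280 CPM in the brain, 2.13, 0.572, 5.00, 0.677 and 0.379 CPM in leg muscle and 0.498, 0.268, 0.291 and 0.320 CPM in the spinal cord. Leg muscle exceeded the brain in every library and overlapped the spinal cord. It was called at -3.31 ± 1.16 for brain over leg muscle (adjusted p = 0.032) and 2.32 ± 0.82 for leg muscle over spinal cord (adjusted p = 0.03). The brain over leg muscle call was lost without brain 1, brain 2 and leg muscle 3, each left out alone (Log2FC -4.81 to -2.41, adjusted p = 0.053 to 0.2), and that of leg muscle over spinal cord without leg muscle 1, leg muscle 3, spinal cord 2, spinal cord 3 and spinal cord 4, each left out alone (Log2FC 1.43 to 2.36, adjusted p = 0.051 to 0.1). Over all alternatives they were lost under 9 of 26 and 10 of 26.

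CLDN24 (007472-RA), matched to a putative human claudin, was at 0.273 and 0.336 CPM in the brain, 0 CPM in every leg muscle library and 1.38, 0.268, 0.204 and 0 CPM in the spinal cord. No leg muscle held a read, and spinal cord 1, with 36 reads, held most of those in the spinal cord. Brain was at least 9.45-fold higher than leg muscle (adjusted p = 0.04) and leg muscle at least 13.2-fold lower than spinal cord (adjusted p = 0.018), both against a floor of 3 reads over leg muscle. The first of these calls was lost without brain 1, brain 2, leg muscle 1, leg muscle 2, leg muscle 3, leg muscle 4, leg muscle 5, spinal cord 2 and spinal cord 3, each left out alone (Log2FC 5.72 to 6.02, adjusted p = 0.051 to 0.11). The bound for leg muscle and spinal cord was 4.56-fold without spinal cord 1 (adjusted p = 0.048). That call was lost with limma-voom (adjusted p = 0.075), without spinal cord 1 and 2 (adjusted p = 0.12) and when leg muscle 4 and 5 were both left out (adjusted p = 0.05, just above the threshold before rounding).

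Cldn19 is known in mammals from the tight junctions of Schwann cells in peripheral myelin and from the kidney. Its level was 0.789 and 0.925 CPM in the brain, 1.07, 4.58, 1.95, 2.67 and 5.09 CPM in leg muscle and 0.153, 1.69, 3.60 and 1.18 CPM in the spinal cord. Leg muscle exceeded the brain in every library, but neither brain over leg muscle, at -1.84 ± 0.95 (adjusted p = 0.13), nor leg muscle over spinal cord, at 0.89 ± 0.70 (adjusted p = 0.3), passed. CLDN20 followed a similar course, with 0.0607 and 0.280 CPM in the brain, 0.152, 3.88, 0.731, 1.19 and 1.77 CPM in leg muscle and 0.0765, 1.03, 2.04 and 0.224 CPM in the spinal cord, and also did not pass (adjusted p = 0.087 for brain over leg muscle).

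CLDN7, CLDN8 and CLDND1 were called in no comparison by edgeR with TMM scaling and all libraries. For leg muscle over spinal cord DESeq2 called CLDN7 (016918-RA), at 2.56 (adjusted p = 0.017), and limma-voom called CLDN8, at -2.59 (adjusted p = 0.039). With library totals alone CLDN8 was at -2.83 (adjusted p = 0.034) and CLDND1 at -1.65 (adjusted p = 0.012). CLDN7, an epithelial claudin that is given in full because of its leg muscle values, a choice made after they were seen, was counted in 2 entries that share a transcript, and the entry of transcript 016918-RA was at 6.89 and 5.74 CPM in the brain, 22.8, 2.67, 57.2, 0.381 and 0.758 CPM in leg muscle and 3.14, 2.68, 3.55 and 2.27 CPM in the spinal cord. Leg muscle 3 and 1 lay above the nervous tissues, leg muscle 2 lay within their range, and leg muscle 4 and 5 lay below it. CLDND1 lay at 2.13 to 8.02 CPM over all 11 libraries. CLDN10 (13 reads), CLDN14 (8 reads), CLDN18 (12 reads, all in spinal cord 4) and CLDN24 (007473-RA) (11 reads) were too low to test.

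Among the other tight junction membrane proteins, Esam and JAM3 were called in both comparisons with leg muscle, in opposite directions. Esam, an adhesion molecule of endothelium and platelets, had 3.73 and 3.87 CPM in the brain, 14.2, 11.2, 16.9, 23.4 and 19.3 CPM in leg muscle and 2.22, 5.89, 8.23 and 8.40 CPM in the spinal cord. Every leg muscle lay above every brain and spinal cord. Brain over leg muscle was -2.16 ± 0.51 (adjusted p = 0.0041) and leg muscle over spinal cord 1.46 ± 0.37 (adjusted p = 0.0059). With library totals alone neither was called: brain over leg muscle was -0.32 (adjusted p = 0.62), and leg muscle over spinal cord turned to -0.39 (adjusted p = 0.44). The endothelium list does not contain Esam. Of its 17 tested transcripts 10 were called higher in leg muscle than in the spinal cord, beside 25.7% of all tested transcripts, and 2 lower, beside 29.9%. The vascular cadherin CDH5 was at 1.36 for leg muscle over spinal cord (adjusted p = 0.00065).

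JAM3 encodes JAM-C, found in mammals on endothelium, spermatids and Schwann cells. It was measured at 10.4 and 7.87 CPM in the brain, 2.97, 2.86, 4.08, 4.23 and 6.74 CPM in leg muscle and 8.53, 10.97, 10.6 and 5.78 CPM in the spinal cord. The brains exceeded all leg muscles, and spinal cord 4 lay below leg muscle 5. Brain over leg muscle was 1.12 ± 0.38 (adjusted p = 0.027) and leg muscle over spinal cord -1.10 ± 0.32 (adjusted p = 0.011). The call for brain over leg muscle was lost without brain 1 and brain 2, each left out alone (Log2FC 0.85 to 1.26, adjusted p = 0.065 to 0.22), and both calls were lost without spinal cord 1 and 2 (1.07 with an adjusted p = 0.056 for brain over leg muscle and -0.94 with an adjusted p = 0.095 for leg muscle over spinal cord). Brain over spinal cord did not pass, at 0.02 ± 0.41 with a 95% interval of -0.86 to 0.91 (adjusted p = 0.99).

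F11r encodes JAM-A, a JAM of epithelium, endothelium and blood cells. Its values were 1.52 and 2.10 CPM in the brain, 3.96, 0.254, 12.4, 18.4 and 1.39 CPM in leg muscle and 0.727, 0.847, 4.24 and 0.224 CPM in the spinal cord. Leg muscle 4 and 3 and spinal cord 3 were high within their tissues, and the tissues overlapped. No comparison passed in edgeR (leg muscle over spinal cord 2.26 ± 1.08, adjusted p = 0.095). DESeq2 called leg muscle over spinal cord, at 2.26 (adjusted p = 0.03), and in edgeR it passed without spinal cord 3, at 3.68 (adjusted p = 0.026), and without leg muscle 2, at 2.57 (adjusted p = 0.04).

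Occludin was annotated on 2 gene IDs. The Xenopus-matched ocln (008651-RA) was at 1.43 and 0.841 CPM in the brain, 8.37, 1.34, 22.4, 2.29 and 1.22 CPM in leg muscle and 1.65, 2.27, 3.17 and 3.96 CPM in the spinal cord. Both brains lay below all spinal cords, and leg muscle 3 and 1 lay above every other library. It did not pass for brain over leg muscle (-2.64 ± 1.15, adjusted p = 0.074) or leg muscle over spinal cord (1.36 ± 0.81, adjusted p = 0.17). DESeq2 called the first, at -2.67 (adjusted p = 0.012), and so did edgeR without leg muscle 2 or leg muscle 5 (adjusted p = 0.044 and 0.037).

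OCLN (001146-RA), matched to a potoroo, was much sparser, at 0.334 and 0.112 CPM in the brain, 0.533, 0.254, 0.488, 0.423 and 0.505 CPM in leg muscle and 0.0383, 0.0892, 0.262 and 0 CPM in the spinal cord. Its leg muscle over spinal cord value, 2.09 ± 0.84, fell just short (adjusted p = 0.052). It was called by DESeq2 (adjusted p = 0.037), by limma-voom, at 2.64 (adjusted p = 0.012), by edgeR's newer quasi-likelihood method (adjusted p = 0.027) and without spinal cord 3, at 3.38 (adjusted p = 0.011). The 2 marveld1 transcripts and MARVELD3, an occludin relative, were at or below 1.65 CPM in every library and were not called. Of these, marveld1 (019454-RA) had 0.698 and 0.953 CPM in the brain, 0.457, 1.53, 1.28, 1.23 and 1.43 CPM in leg muscle and 1.07, 0.758, 0.669 and 0 CPM in the spinal cord, with no read in spinal cord 4.

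Of 6 tested scaffold transcripts, 3 were called lower in leg muscle than in the spinal cord, beside 29.9% of all tested transcripts, and 1 higher, beside 25.7% of all. Against leg muscle 1 was called lower in the brain, beside 21.9% of all, and 0 higher, beside 28.7% of all. TJP1 encodes ZO-1, the scaffold that ties claudins and occludin to actin and that also sits at gap junctions. It had 128 and 72.99 CPM in the brain, 67.7, 46.3, 101, 61.4 and 75.7 CPM in leg muscle and 170.4, 155, 259.6 and 195 CPM in the spinal cord. Every spinal cord exceeded every brain and every leg muscle, while brain and leg muscle overlapped. Leg muscle over spinal cord was -1.47 ± 0.27 (adjusted p = 0.0007), and this call held under every alternative run. Brain over spinal cord was -0.96 ± 0.36 and did not pass (adjusted p = 0.25).

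CGNL1 encodes paracingulin, which links junctions to actin and microtubules. Its level was 7.95 and 10.8 CPM in the brain, 3.65, 7.19, 6.89, 3.43 and 5.77 CPM in leg muscle and 11.9, 4.32, 9.36 and 21.1 CPM in the spinal cord. Spinal cord 2 lay within the leg muscle range. Leg muscle over spinal cord was -1.11 ± 0.41 (adjusted p = 0.037), and the call was lost without brain 1, brain 2, leg muscle 1, leg muscle 4, leg muscle 5, spinal cord 1, spinal cord 3 and spinal cord 4, each left out alone (Log2FC -1.13 to -0.62, adjusted p = 0.055 to 0.19), and under 13 of 26 alternatives in all. Brain over leg muscle was 0.80 ± 0.50 (adjusted p = 0.2).

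Cingulin was annotated on the consecutive IDs 018332-RA and 018333-RA. For cgn (018332-RA) the values were 19.6 and 12.3 CPM in the brain, 3.88, 0.509, 20.1, 0.339 and 0.716 CPM in leg muscle and 12.7, 16.3, 14.1 and 11.9 CPM in the spinal cord. Leg muscle 3 reached the level of the brain, whereas leg muscle 2, 4 and 5 had under 1 CPM. For cgn (018333-RA) they were 5.40 and 3.39 CPM in the brain, 1.75, 0, 6.03, 0.0847 and 0.0842 CPM in leg muscle and 3.56, 5.26, 4.30 and 0.671 CPM in the spinal cord. With all libraries edgeR with TMM scaling called neither, whereas limma-voom called both: cgn (018332-RA) was at 3.41 (adjusted p = 0.0045) for brain over leg muscle and -3.23 (adjusted p = 0.0033) for leg muscle over spinal cord, and cgn (018333-RA) at 3.84 (adjusted p = 0.022) and -3.15 (adjusted p = 0.041). Library totals alone also called both in both comparisons (adjusted p = 0.011 to 0.042). In edgeR without leg muscle 3 cgn (018332-RA) gave 3.59 for brain over leg muscle (adjusted p = 0.0019) and -3.38 for leg muscle over spinal cord (adjusted p = 0.0014), and cgn (018333-RA) gave 3.29 and -2.94 (adjusted p = 0.041 for each).

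Leg muscle libraries differed among themselves in junction transcripts more than the other tissues did. The median SD of log2(CPM + 0.5) over the 37 transcripts was 0.29 among brains, 0.71 among leg muscles and 0.40 among spinal cords, beside 0.26, 0.41 and 0.36 over all tested transcripts. The junction transcripts were also less abundant, with a median mean level of 4.45 CPM beside 8.09 CPM over all.

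Leg muscle 3, followed by leg muscle 1, was the highest leg muscle for CLDN7, CLDN23, CLDN1, GJB5, ocln (008651-RA) and cgn (018332-RA). In these libraries the summed epithelium list, of which 6 of 12 genes were found, was 676 and 181 CPM, against 43.5 to 50.8 CPM in the other leg muscles, 10.8 to 21.4 CPM in the brain and 44.2 to 161 CPM in the spinal cord. Its members EPCAM, an adhesion molecule of epithelia, and Tp63, a factor of stratified epithelia, had 62.03, 7.44, 224, 0 and 0.421 CPM and 44.1, 9.16, 139, 6.65 and 4.59 CPM over leg muscle 1 to 5. RAB25, esrp1 and cdh1 (016616-RA) were likewise highest in leg muscle 3 and next in leg muscle 1. Cdh1 (016500-RA) had 21.9, 23.02, 80.2, 31.9 and 28.97 CPM, lowest in leg muscle 1. Cdh1 (016614-RA) and cdh1 (016615-RA) had 0.533 and 1.37 CPM in leg muscle 1, within the range of leg muscle 2, 4 and 5. For brain over leg muscle, 3 of 8 tested entries were called lower, beside 21.9% of all tested transcripts, and 1 higher, beside 28.7%. For leg muscle over spinal cord, 5 were called higher, beside 25.7%, and 2 lower, beside 29.9%. The part of epithelial material in the leg muscle levels was not tested.

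**Figure D4:**
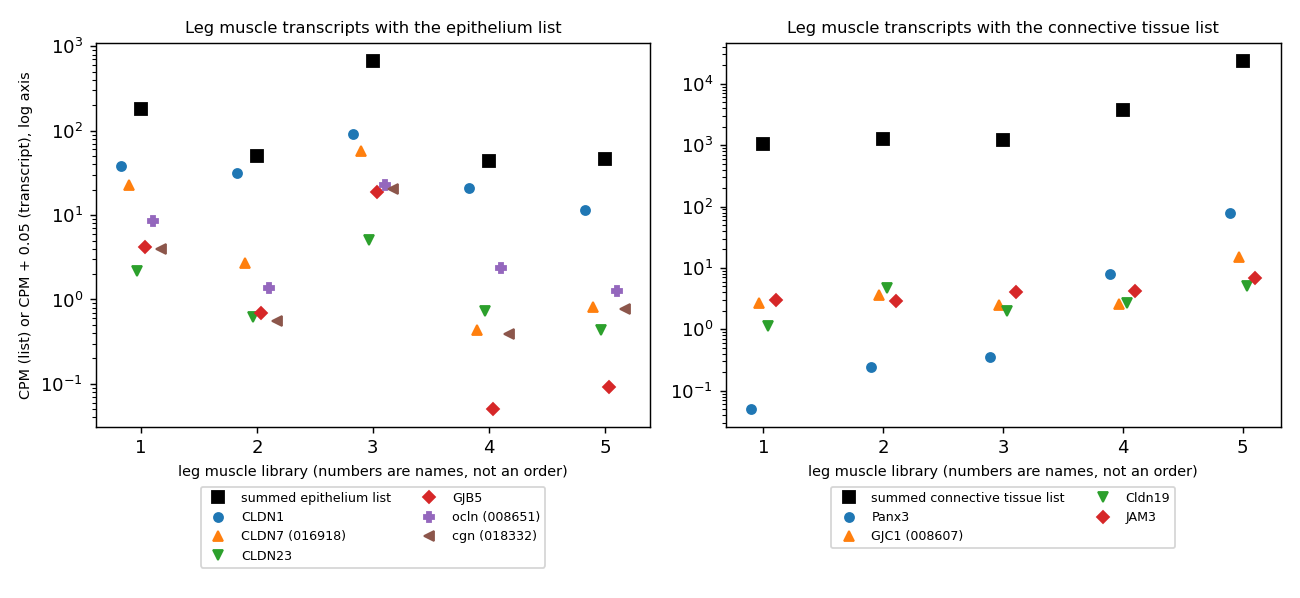
CPM of junction transcripts (colored symbols, after adding 0.05) and summed CPM of a marker list (black squares) in the 5 leg muscle libraries, on logarithmic axes. The left panel sets 6 transcripts beside the epithelium list, both highest in leg muscle 3 (675.5 CPM for the list), and the right panel sets Panx3, GJC1 (008607-RA), Cldn19 and JAM3 beside the connective tissue list, highest in leg muscle 5.

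When leg muscle 1 and 3 were both left out, a choice made after seeing the data, 12 junction transcripts were called higher in the brain than in leg muscle and 3 lower, and 4 were called higher in leg muscle than in the spinal cord and 14 lower. Of the 34 junction transcripts tested in that fit, 35.3% were thus higher in the brain than in leg muscle, beside 27.9% of all tested transcripts. Lower in leg muscle than in the spinal cord were 41.2%, beside 28.0% of all. With all libraries these shares were 18.9% and 29.7%. Higher in leg muscle were 8.82% against the brain and 11.8% against the spinal cord, both below the shares over all transcripts. The libraries left out held the highest leg muscle levels of several junction transcripts, so leaving them out lowers those leg muscle means. These shares therefore cannot show whether junction transcripts differ from all transcripts. Both cgn transcripts then passed against brain and spinal cord, and CLDN7 (016918-RA) was higher in the brain than in leg muscle, at 2.33 (adjusted p = 0.015). Leg muscle 1 and 3 held the highest leg muscle levels of these transcripts, so leaving them out favored these calls. They are therefore not read as tissue differences. CLDN23 was no longer called, and GJB5 no longer had enough reads to be tested. When leg muscle 4 and 5 were left out, likewise after seeing the data, Panx3 no longer had enough reads to be tested, and GJC1 (008607-RA) was called lower in the brain than in the spinal cord (adjusted p = 0.0096).

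A further list holds partners of these proteins. Of 15 tested transcripts of tight junction scaffold and polarity partners, 4 were called higher in the brain than in leg muscle and 2 lower, and 5 were higher in leg muscle than in the spinal cord and 6 lower, beside the same shares of all transcripts as above. ILDR2, a relative of the proteins of tricellular junctions, had 39.1 and 43.99 CPM in the brain, 0.304, 0.636, 0.183, 1.23 and 1.09 CPM in leg muscle and 37.1, 32.4, 28.5 and 36.2 CPM in the spinal cord (leg muscle over spinal cord -5.54, adjusted p = 1.3e-06). The polarity scaffold MPDZ was lower in leg muscle than in the spinal cord on both of its IDs, at -1.93 and -2.05 (adjusted p = 0.00084 and 0.00067). Amotl2, a junction-associated angiomotin, was higher in leg muscle, at 3.80 (adjusted p = 0.00092), with 873 CPM in leg muscle 1 and 103 to 150.2 CPM in the other leg muscles.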

How the data were processed

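RNA was sequenced from 11 tissue samples. Per the study's methods, the authors used STAR to align reads to their own S. parvus assembly and htseq-count to assign them to transcripts. The deposited files hold the resulting raw counts. The counter's version and strand setting are not given in the sources used here, so reads of overlapping transcripts on opposite strands may not have been told apart. Of all reads or pairs, 49.4% to 70.0% lay in no annotated feature and 2.70% to 6.07% did not align uniquely, and these stayed out of library sizes, as did the other summary lines. A second deposited file pairs transcripts with protein names.

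Counts were analysed with edgeR 4.0.16 in R 4.3.3. Transcripts passed filterByExpr with a minimum count of 10 and a minimum total of 15, libraries were scaled by TMM, and a quasi-likelihood model with 1 coefficient per tissue was fitted over 13923 transcripts, where p-values were adjusted by the Benjamini-Hochberg method and called below 0.05. Intervals of Log2FC use the t distribution of that fit. Same-named pairs were compared by exact permutation of libraries in scipy 1.17.1. The code was tested on simulated data. No pair of libraries agreed within sampling noise.

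Alternatives were other scalings, filters and tools (DESeq2 1.42.0, limma 3.58.1), a fit per pair of tissues, counts summed per gene ID, a replicate block, and fits that left out libraries, 2 of them (leg muscle 1 and 3, leg muscle 4 and 5) chosen after seeing the data. Values per library are given for members called between brain and spinal cord, up to 6 per family with the lowest p, and known markers of cell types or barriers. Members and lists were chosen with earlier results of these data known. Some of the counted transcripts are not reported here by name.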

Additional observations from a re-analysis of the deposited data

Results flagged for a closer look

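Of 52 groups of leg muscle or spinal cord values of 26 transcripts given per library, 6 held a library whose gap to its nearest neighbor was large for the range of the group by Dixon's criterion at 95%. Chance alone gives about 1 in 20 groups where values are normally distributed, which was not tested for these CPM. GJD2 and CLDN24 (007472-RA) in leg muscle and GJB5 in the spinal cord were at 0 CPM throughout and could not be flagged. Leg muscle 3 was the highest leg muscle in 2 of the 6 flagged groups, with 18.5 CPM of GJB5 (next 4.19) and 20.1 CPM of cgn (018332-RA) (next 3.88). Leg muscle 5 was highest in 2, with 77.6 CPM of Panx3 (next 8.04) and 14.9 CPM of GJC1 (008607-RA) (next 3.62). Leg muscle 1 was lowest for marveld1 (019454-RA), at 0.457 CPM (next 1.23). Spinal cord 3 was highest for F11r, at 4.24 CPM (next 0.847).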

How the results depend on the processing

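Of 29 calls, 10 were kept under every one of the 26 alternatives that tested them: Cldn12 (008894-RA), gja1, GJD2 and Panx2 in both comparisons with leg muscle, and TJP1 and GJC1 (008607-RA) for leg muscle over spinal cord. The other 19 lost significance under at least 1, and 2 of these changed sign with library totals alone, for leg muscle over spinal cord: Cldn12 (007528-RA), at -0.31, and Esam, at -0.39. The counts over the 37 junction transcripts moved by over 1.5 times as follows, and the cause was not tested. Library totals alone gave 15 higher in the brain and 0 higher in leg muscle in that comparison, and 2 higher in leg muscle than in the spinal cord, in place of 7, 4 and 6. Of all tested transcripts this setting called 63.2%, 6.68% and 6.63% in these directions. DESeq2 gave 2 lower in the brain than in the spinal cord, 9 lower in the brain than in leg muscle and 10 higher in leg muscle than in the spinal cord. Of all tested transcripts DESeq2 called 3.26%, 25.7% and 27.9% in these directions. Limma-voom gave 2 lower in the brain than in the spinal cord, beside 1.87% of all, and 1 lower in the brain than in leg muscle, beside 21.8%. A fit of only the tissues compared gave 1 lower in the brain than in the spinal cord, beside 1.97% of all. Without spinal cord 1 and 2, 0 were higher in the brain than in the spinal cord, beside 0.221% of all. In that fit 2 were higher in leg muscle than in the spinal cord, beside 18.3% of all. Without leg muscle 1 and 3, 12 were higher in the brain than in leg muscle, beside 27.9% of all. Without leg muscle 4 and 5, 1 was lower in the brain than in the spinal cord, beside 1.12% of all.

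Leaving out each leg muscle or spinal cord library in turn gave 0 to 1 higher and 0 to 1 lower for brain against spinal cord. Of all tested transcripts 0.508% to 1.57% and 0.486% to 1.17% were so called. Brain against leg muscle gave 6 to 9 higher and 2 to 6 lower, beside 26.6% to 29.1% and 21.0% to 23.6% of all. Leg muscle against spinal cord gave 4 to 8 higher and 9 to 13 lower, beside 23.8% to 26.1% and 26.2% to 29.9% of all. Fits that left out a brain keep a single brain library, and their counts are not given. Nothing states that equal sample numbers mark the same frog. Of 8 same-numbered pairs 5 had deviations correlated above 0.1 (-0.05 to 0.22), while differently numbered pairs ran from -0.28 to 0.28. Deviations of brain 1 and brain 2 mirror each other, so the values with the brain are not independent. Whether the numbers pair the samples is thus not known, and they were not used to pair them. With the replicate block, 0 junction transcripts were higher in the brain than in the spinal cord, where Cldn12 (007528-RA) was at 2.55 (adjusted p = 0.053), and 1 was lower. Of all tested transcripts 0.531% were higher and 0.510% lower with that block. A transcript with no reads allows up to 0.0841 to 0.228 CPM per library, and differences below this were not detectable at this depth.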

Other observations

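A list of large-pore channels related to pannexins in form or function held the LRRC8 volume-regulated anion channels and CALHM channels. Of its 7 tested transcripts 2 were called higher in leg muscle than in the spinal cord, beside 25.7% of all tested transcripts, and 2 lower, beside 29.9%. LRRC8C had 11.9 and 17.1 CPM in the brain, 3.42, 4.01, 2.07, 3.39 and 5.22 CPM in leg muscle and 15.5, 10.97, 11.9 and 13.1 CPM in the spinal cord, with no overlap of leg muscle and spinal cord (-1.82, adjusted p = 0.00017). LRRC8D was again a name on 2 IDs with opposite signs, -1.34 (adjusted p = 0.011) and 7.76 (adjusted p = 0.0024), and the second of these reached 15.6 CPM in leg muscle 3 and 7.69 CPM in leg muscle 1, against 0.254 to 0.509 CPM in the other leg muscles. CALHM4 was at 2.21, 0.127, 6.95, 1.69 and 1.77 CPM in leg muscle and 0.268, 0.178, 0.174 and 0.160 CPM in the spinal cord, with leg muscle 2 below all spinal cords (3.68, adjusted p = 0.0045).

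An entry annotated as cx23, a gap junction epsilon-1 protein matched to zebrafish, lay outside the set described above. It held 1 to 7 reads in each of the 11 libraries and was not tested.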
